A study of Mus musculus with 16 samples.

Results

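The subunit genes of the chromatin complexes SWI/SNF, NuRD and Polycomb were examined in MPP3 and MPP4 cells, a pair of multipotent progenitor populations of mouse bone marrow. The 45 genes were chosen by name from a list of the complexes' subunits, out of 47937 gene identifiers in the count tables. They comprised 17 SWI/SNF genes, 11 NuRD genes and 17 Polycomb genes, of which 5 encode subunits of Polycomb repressive complex 2 (PRC2), 9 subunits of Polycomb repressive complex 1 (PRC1) and 3 subunits of the Polycomb repressive deubiquitinase (PR-DUB). All 45 were found in the tables, and all 45 had a mean above 100 counts in at least 1 group of libraries.

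RNA from sorted cells of C57BL/6 mice (C57BL/6J in the study's methods) was sequenced in 16 libraries, 4 for each population and genotype. MPP3 and MPP4 libraries with the same genotype and replicate number share sex and age in the labels and deviated together from their group means, so they were taken as the libraries of 1 mouse, which gives 8 mice. Per the labels, all mice carried floxed Ebf1 alleles (Ebf1 fl/fl). Mice labelled WT had the Tie2Cre genotype +/+, that is without Cre, and those labelled KO had +/cre. The description of the series and the text of the study instead give the WT mice unfloxed Ebf1 alleles together with Tie2Cre, and the study's methods name littermates of either kind, floxed or carrying Cre, as controls for this strain. The sources thus differ on whether the WT mice used here carried Cre. The Tie2 (Tek) promoter drives Cre in endothelium and in the stem cells of the blood, so the deletion was not limited to MPP3 and MPP4. The WT mice were 11 or 12 weeks old (replicates 1 and 2 female, 3 and 4 male) and the KO mice 9 to 11 weeks old (replicates 1 and 2 male, 3 and 4 female). Bone marrow from femora, tibiae and ilia of a mouse was combined, and lineage-depleted LSK cells (Sca-1+ Kit+) were sorted as CD150- CD48+ for MPP3, with Flt3+ added for MPP4.

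Library totals ran from 24823708 to 48703193 counts, and 11831 genes were tested. The targeted gene itself, Ebf1, was counted in MPP3 at 5, 21, 91 and 82 under the WT label against 23, 6, 84 and 6 under the KO label, and in MPP4 at 187, 98, 199 and 263 against 817, 928, 488 and 642. Ebf1 counts in MPP4 were thus higher in every library labelled KO, and counts over the whole gene do not tell intact from recombined transcripts, so Ebf1 itself does not check the labels. Cd79a, a B cell receptor gene that Ebf1 is known to activate, was counted at 85, 88, 123 and 69 under the WT label against 1, 9, 25 and 13 under the KO label in MPP3, and at 81, 47, 354 and 202 against 0, 6, 26 and 0 in MPP4. The immunoglobulin gene Igkc was counted at 12659, 9154, 3443 and 2674 against 0, 0, 2306 and 0 in MPP3, and at 58, 514, 139 and 46 against 0, 0, 6 and 0 in MPP4. Both genes, picked from the B cell and plasma cell markers after their values were seen, were thus lower in every library labelled KO, without overlap, although edgeR called neither (FDR 0.254 and 0.16 for Cd79a, 0.35 and 0.30 for Igkc, in MPP3 and MPP4) and DESeq2 called only Cd79a in MPP3 (FDR 0.0657), giving no adjusted p for it in MPP4 (unadjusted DESeq2 p 3.19e-05). KO replicate 3 had the highest counts of both genes under the KO label in each population. Its 2306 Igkc counts in MPP3 lay close below the 2674 of WT replicate 4, and what set this mouse apart was not tested. Not all markers of these lists separated by label. Cd79b had a log2 fold change of KO against WT of 0.0063 in MPP3 and 0.086 in MPP4, Xbp1 of 0.35 and 0.18, and Sdc1 of 0.35 and −0.32, none of them lower in every library labelled KO. Jchain (−3.73) and Mzb1 (−2.89) were lower without overlap in MPP3, whereas in MPP4 they overlapped, at −0.72 (0.46 for Jchain with the shared replicate number as a block) and −0.46, and edgeR called none of these 5 genes. DESeq2 called Mzb1 lower in MPP3 (log2 −2.87, FDR 0.0185) and gave no adjusted p for it in MPP4. Flt3, which separated the sort gates, was at 281 ± 25.3 CPM (counts scaled to library size, mean ± SD, n = 4) in MPP3 and 1229 ± 92.1 CPM in MPP4 of mice labelled WT. Values of libraries are CPM scaled by TMM factors, in the order of replicates 1 to 4, and coordinates are those of the GENCODE M21 annotation of GRCm38. Calls are from edgeR's quasi-likelihood test with a false discovery rate (FDR, Benjamini-Hochberg over all 11831 genes) under 0.1.

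SWI/SNF complexes use the energy of ATP to slide or evict nucleosomes and open chromatin at enhancers and promoters, and they exist in canonical BAF, PBAF and noncanonical BAF forms that differ in accessory subunits. NuRD joins an ATP-dependent remodeller with histone deacetylases and is best known for silencing or tuning active genes during lineage choice. PRC2 methylates a lysine on the tail of histone H3, PRC1 binds that mark through its Cbx subunits and ubiquitinates histone H2A, and PR-DUB removes this ubiquitin again. Polycomb genes are known for keeping stem cell and developmental programmes in check in blood progenitors, and several members of all 3 families are mutated in leukaemia.

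Levels were first set side by side per length, as CPM per kb of annotated exon averaged over the 4 groups. The highest level belonged to Rbbp7, which encodes a histone-binding WD40 protein shared by NuRD and PRC2, at 279.9 CPM per kb. The NuRD scaffold gene Mta2 and the deacetylase gene Hdac1 followed at 82.3 and 81.8 CPM per kb. Among SWI/SNF genes the range ran from 47.0 CPM per kb for Actl6a, an actin-related subunit, down to 6.59 for Arid2, a subunit of PBAF. The ATPase gene Smarca4 was at 41.0 CPM per kb and its paralogue Smarca2 at 6.85. PRC1 genes were lower, with the catalytic Rnf2 at 22.0 and all others between 1.25 (Phc3, a polyhomeotic subunit, the lowest of the 45) and 11.3 CPM per kb (Ring1). Within PRC2, Eed was at 30.4, the methyltransferase gene Ezh2 at 20.8, and Ezh1, Suz12 and Jarid2 were close together at 7.02, 6.92 and 6.86 CPM per kb. Exon length was the union of all annotated isoforms, so these levels depend on the annotation.

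**Figure D1:**
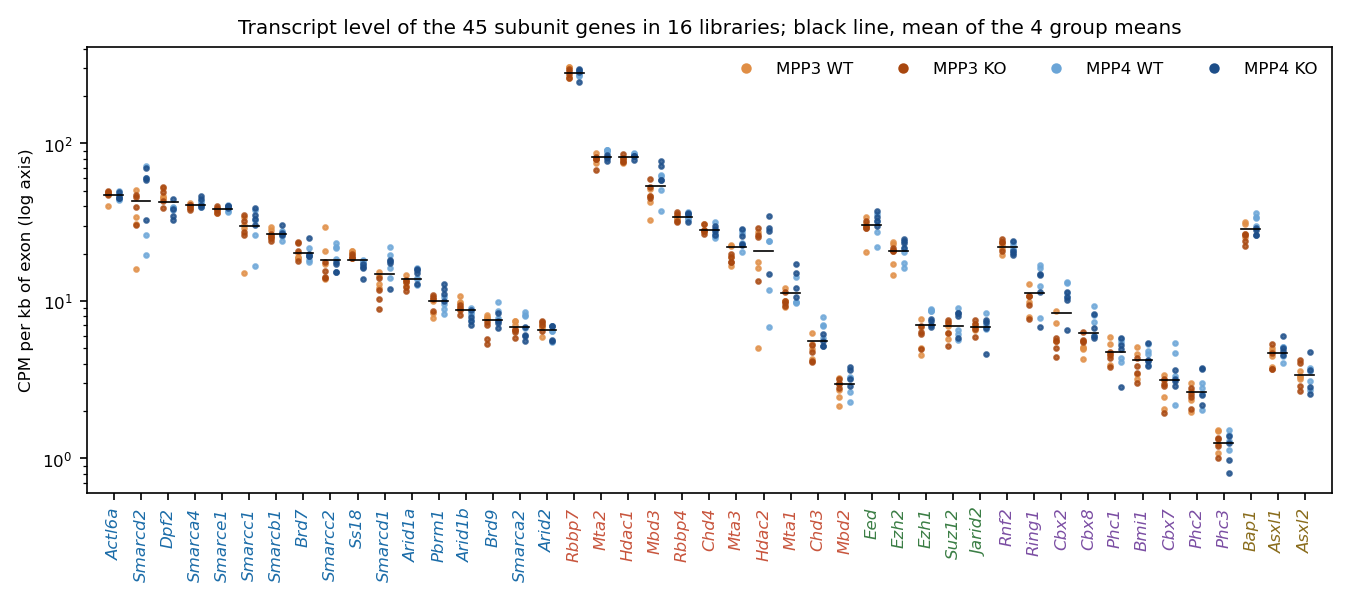
Level of each of the 45 genes in CPM per kb of exon on a log axis, with 1 point per library (orange and brown, MPP3; light and dark blue, MPP4) and a black line at the mean of the 4 group means; gene names are coloured by complex. Rbbp7 stands highest at 279.9 CPM per kb and Phc3 lowest at 1.25, and the points of Hdac2 and Smarcd2 are spread more widely than those of the other genes.

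The comparison of MPP3 with MPP4 in mice labelled WT asked how the subunit genes differ between a myeloid-biased and a lymphoid-biased progenitor. In this comparison 7 of the 45 genes were called (15.6%), beside 15.1% of all genes tested. Of these, 3 were higher in MPP3 (6.80% of all genes were called higher) and 4 were lower (8.33% of all genes were called lower). The higher genes were all SWI/SNF genes, Arid1b, Dpf2 and Ss18, and the lower genes were Cbx2 and Cbx8 of PRC1, Ezh1 of PRC2 and Chd3 of NuRD. The median log2 fold change over the 45 genes was −0.059, against −0.00039 over all genes, and 35 of the 45 lay below 0 (33 in DESeq2). Groups did not overlap for 8 genes (17.8%, against 15.9% of all genes), namely Arid1b, Dpf2, Ss18, Mta2, Hdac1, Ezh1, Cbx2 and Cbx8. With the mouse as a block, 15 of the 45 were called (24.8% of all genes), 3 higher and 12 lower.

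In mice labelled KO the same comparison called 6 of the 45 genes (13.3%, against 17.9% of all genes), with Dpf2 and Ss18 higher in MPP3 and Smarcd1, Mta1, Mta3 and Cbx2 lower. Groups did not overlap for 4 genes (8.89%, against 17.2%), namely Ss18, Mta3, Ezh2 and Cbx2. With the mouse as a block, 13 were called (28.3% of all genes), 3 higher and 10 lower. Dpf2, Ss18 and Cbx2 were called in mice of both labels, which is 42.9% of the WT calls and 50.0% of the KO calls. Over all genes tested, 1342 were called in both labels, 75.0% of the WT calls and 63.4% of the KO calls. With the block this number was 9 genes (60.0% of the WT calls and 69.2% of the KO calls, against 71.1% and 62.3% over all genes), all with the same sign, and it added Smarcd1, Smarcd2, Arid1b, Chd3, Mbd3 and Mta3. The difference between the contrasts of both labels was tested as an interaction, in which none of the 45 genes was called. In bulk libraries, less RNA of a gene per cell and fewer cells that express it cannot be told apart.

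**Figure D2:**
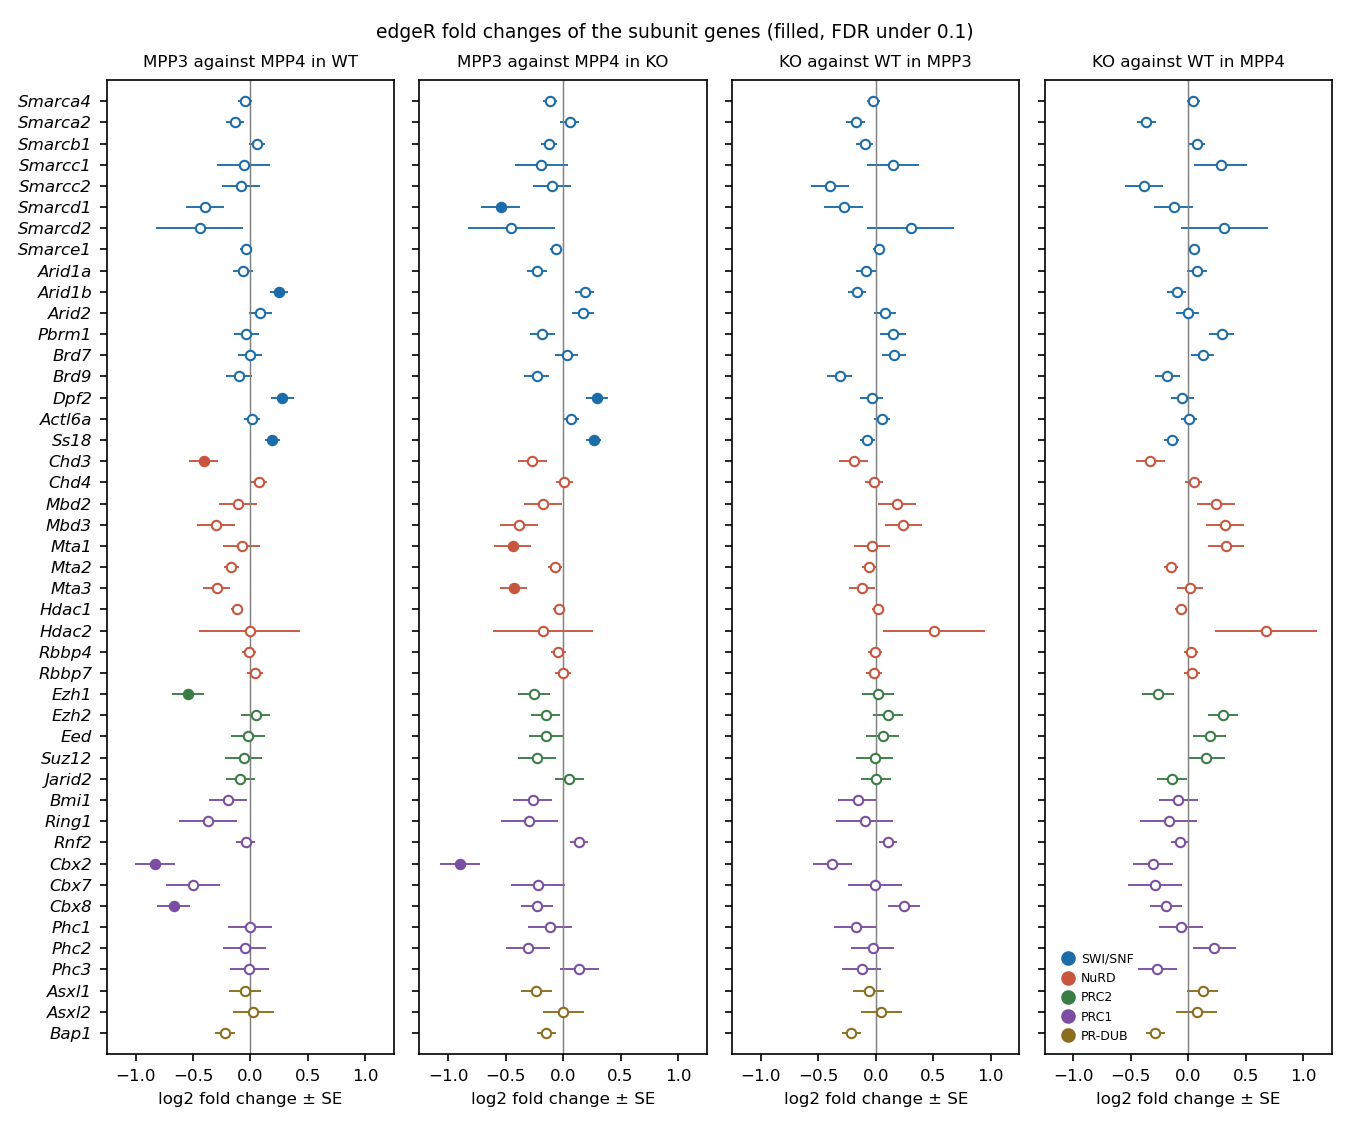
Fitted log2 fold change ± SE of the 45 genes for MPP3 against MPP4 (left pair of panels, positive when higher in MPP3) and for KO against WT (right pair, positive when higher in libraries labelled KO), coloured by complex and filled where the FDR was under 0.1. Filled points occur in the panels of MPP3 against MPP4 and in neither panel of KO against WT, and Cbx2 lies farthest to the left in both population panels.

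The largest log2 fold change among the 45 genes in either label was that of the PRC1 gene Cbx2. The 9 PRC1 genes all had a negative log2 fold change of MPP3 against MPP4 in mice labelled WT (median −0.20), except that of Phc1 in DESeq2 (0.0010), and 7 of 9 did in mice labelled KO (median −0.22). This lean was not particular to PRC1. Of the 11 NuRD genes, 9 were negative in WT (median −0.11, 8 in DESeq2) and 10 in KO (median −0.17). So were 4 of 5 PRC2 genes and 2 of 3 PR-DUB genes in each label. Cbx2, a chromodomain subunit of PRC1 (ENSMUSG00000025577, chromosome 11, 119022962 to 119031270, plus strand), had 30.8, 36.8, 23.6 and 23.9 CPM in the MPP3 libraries labelled WT, against 47.9, 45.02, 55.9 and 55.5 CPM in the MPP4 libraries labelled WT. In mice labelled KO it had 23.7, 24.7, 21.5 and 18.8 CPM in MPP3 and 43.3, 48.8, 45.3 and 28.0 CPM in MPP4. All MPP3 values lay below all MPP4 values within each label, although MPP4 KO replicate 4 lay within the range of the MPP3 libraries labelled WT. The log2 fold change was −0.83 ± 0.17 (SE, FDR 0.00362) in WT and −0.90 ± 0.17 (FDR 0.00167) in KO, a level 1.78-fold and 1.87-fold lower in MPP3.

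Cbx8, another chromodomain subunit (ENSMUSG00000025578, chromosome 11, 119036305 to 119040969, minus strand), had 18.1, 18.6, 18.7 and 15.7 CPM in the MPP3 libraries labelled WT, against 21.9, 27.0, 34.2 and 30.0 CPM in the MPP4 libraries labelled WT, so that the groups did not overlap. Its log2 fold change was −0.67 ± 0.14 (FDR 0.00405). In mice labelled KO it had 20.3, 23.2, 20.8 and 20.1 CPM in MPP3 and 21.4, 30.6, 24.6 and 22.1 CPM in MPP4, where the groups overlapped and the log2 fold change was −0.22 ± 0.14 (FDR 0.366). Cbx2 and Cbx8 are neighbours that point toward each other, with 5034 bases between their annotated ends. Cbx7, which also encodes a chromodomain subunit, was at 17.9 ± 3.97 CPM in MPP3 and 25.3 ± 9.25 CPM in MPP4 of mice labelled WT (log2 −0.50 ± 0.24, FDR 0.228, or 0.0992 with the mouse block). The ubiquitin ligase genes Rnf2 and Ring1, their partner Bmi1 and the polyhomeotic genes Phc1, Phc2 and Phc3 were not called in either label, with log2 fold changes from −0.37 (Ring1) to −0.0030 (Phc1) in WT.

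Within PRC2 the call was on Ezh1, the paralogue of Ezh2 that is known to predominate in cells that divide less (ENSMUSG00000006920, chromosome 11, 101191115 to 101226463, minus strand). It had 56.8, 50.7, 37.3 and 33.9 CPM in the MPP3 libraries labelled WT, against 66.2, 64.3, 64.0 and 65.3 CPM in the MPP4 libraries labelled WT. The 4 MPP4 values lay within a narrow band above all MPP3 values, and the MPP3 values were spread, with the females (replicates 1 and 2) above the males. The log2 fold change was −0.54 ± 0.14 (FDR 0.0168) in WT and −0.25 ± 0.14 (FDR 0.284) in KO, where MPP3 had 45.3 ± 6.27 and MPP4 54.0 ± 2.92 CPM. The WT call was lost without both libraries of WT replicate 3 or of WT replicate 4 (FDR up to 0.105). Ezh2, the main methyltransferase of dividing cells, was at 131 ± 29.9 CPM in MPP3 and 127 ± 17.2 CPM in MPP4 in WT (log2 0.044 ± 0.13, FDR 0.902). Eed, Suz12 and Jarid2, which encode a reader of the methyl mark, a scaffold and a DNA-binding accessory subunit, had log2 fold changes of −0.021, −0.059 and −0.089 in WT, none called.

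The stretches of DNA before the start sites of Cbx8 and Ezh1 are shown because these were the Polycomb genes lower in MPP3 for which RefSeq (GRCm38.p6) gave a promoter window. Capitals mark matches, on either strand, to CCAAT, to the SP/KLF motif GGGCGG, to the ETS motif CCGGAA, to the EBF1 motif TCCCNNGGG, to the C/EBP motif TTGCNNCAA or to the PU.1 motif GAGGAAGT. Sequences run 5′ to 3′ on the minus strand, and bases annotated as exon were left out of the Cbx8 stretch.
Cbx8, chr11:119040970-119041163: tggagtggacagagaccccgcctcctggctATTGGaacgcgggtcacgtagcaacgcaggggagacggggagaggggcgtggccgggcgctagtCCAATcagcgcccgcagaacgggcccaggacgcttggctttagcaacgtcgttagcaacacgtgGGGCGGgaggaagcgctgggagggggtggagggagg
Ezh1, chr11:101226464-101226713: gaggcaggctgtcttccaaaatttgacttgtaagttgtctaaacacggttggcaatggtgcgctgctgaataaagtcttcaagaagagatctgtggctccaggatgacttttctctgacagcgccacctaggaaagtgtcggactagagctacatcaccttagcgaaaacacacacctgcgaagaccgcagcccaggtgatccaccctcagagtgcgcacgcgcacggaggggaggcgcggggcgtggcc
The Cbx8 stretch of 194 bases held 2 CCAAT matches and 1 GGGCGG match, and the Ezh1 stretch of 250 bases held none of the 6 motifs. Over the 250 bases before the start, 37 of the 45 genes had a window, and GGGCGG was in the windows of 30 of them (81.1%, against 64.2% of the 8930 tested genes that had a window). A gene with several windows was counted once if any window held the motif. CCGGAA was in 12 of 37 (32.4%, against 27.1%), CCAAT in 11 (29.7%, against 40.9%) and TCCCNNGGG in 2, those of Eed and Phc2 (5.41%, against 7.70%). TTGCNNCAA and GAGGAAGT were in none of the 37 windows, against 1.51% and 3.21% of tested genes. Counted per window over all 32841 windows of the table, which include genes not expressed in these cells, the shares were 32.7% for GGGCGG, 12.0% for CCGGAA, 33.9% for CCAAT, 5.60% for TCCCNNGGG, 1.74% for TTGCNNCAA and 2.44% for GAGGAAGT. A match describes letters in the window and is not evidence of binding.

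Among NuRD genes, Chd3 was called in WT and Mta1 and Mta3 in KO, all lower in MPP3. Chd3, a remodeller ATPase (ENSMUSG00000018474, chromosome 11, 69343273 to 69369406, minus strand), had 52.9, 45.3, 42.0 and 36.0 CPM in the MPP3 libraries labelled WT, against 66.4, 59.4, 58.7 and 49.3 CPM in the MPP4 libraries labelled WT. These ranges overlapped, because MPP4 replicate 4 lay below MPP3 replicate 1, although MPP3 was lower than MPP4 within each of the 4 mice. The log2 fold change was −0.41 ± 0.13 (FDR 0.0468), and in KO −0.27 ± 0.13 (FDR 0.191, or 0.0402 with the mouse block). The WT call was lost without MPP3 WT replicate 3, MPP3 WT replicate 4 or MPP4 WT replicate 1, and without both libraries of WT replicate 2 or 3 (FDR up to 0.189). Its paralogue Chd4, more abundant, was at 229.8 ± 10.5 CPM in MPP3 and 219 ± 24.9 CPM in MPP4 in WT (log2 0.072 ± 0.076, FDR 0.66).

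The scaffold gene Mta3 (ENSMUSG00000055817, chromosome 17, 83706163 to 83821516, plus strand) had 94.2, 105, 102 and 94.2 CPM in the MPP3 libraries labelled KO, against 137, 152, 122 and 121 CPM in the MPP4 libraries labelled KO, with no overlap and a log2 fold change of −0.43 ± 0.12 (FDR 0.019). The call was lost without both libraries of KO replicate 1 (FDR 0.107). In WT it had 107 ± 15.2 CPM in MPP3 and 132 ± 19.5 CPM in MPP4 (log2 −0.30 ± 0.12, FDR 0.125, or 0.00366 with the mouse block). Mta1 (ENSMUSG00000021144, chromosome 12, 113098278 to 113137206, plus strand), also a scaffold, had 30.3, 31.0, 28.8 and 35.4 CPM in the MPP3 libraries labelled KO, against 47.1, 52.9, 32.9 and 37.3 CPM in the MPP4 libraries labelled KO (log2 −0.44 ± 0.16, FDR 0.0795). The groups overlapped, since MPP4 replicate 3 lay below MPP3 replicate 4, and the call was lost in 9 of 24 fits that left out a library or a mouse (FDR up to 0.375). In WT the log2 fold change of Mta1 was −0.078 ± 0.16 (FDR 0.85). Mta2 and Hdac1, the most abundant scaffold and deacetylase, had log2 fold changes of −0.17 ± 0.062 and −0.12 ± 0.051 in WT with no overlap between the groups, and were called with the mouse block (FDR 0.0305 and 0.0919) but not without it (FDR 0.108 and 0.177). Mbd3, which joins the remodeller and deacetylase parts of NuRD, was likewise called in edgeR with the block only, at log2 −0.29 ± 0.060 in WT (FDR 0.00338) and −0.38 ± 0.060 in KO (FDR 0.00039), and DESeq2 called it in KO without a block (FDR 0.0962). Rbbp4, Rbbp7, Mbd2 and Hdac2 were called in neither label, with or without the block.

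The 3 genes called higher in MPP3 all belonged to SWI/SNF, but the complex as a whole was not higher in MPP3. Of its 17 genes, 11 had a negative log2 fold change in WT (median −0.041) and 10 in KO (median −0.096). With the mouse block, 3 were called higher and 2 lower in WT, and 3 higher and 5 lower in KO. Arid1b, the large subunit that takes the place of Arid1a in a fraction of canonical BAF (ENSMUSG00000069729, chromosome 17, 4994332 to 5347656, plus strand), had 136, 125, 116 and 122 CPM in the MPP3 libraries labelled WT, against 113, 96.0, 108 and 103 CPM in the MPP4 libraries labelled WT. All MPP3 values lay above all MPP4 values, and the log2 fold change was 0.25 ± 0.080 (FDR 0.0584). In KO it was 0.19 ± 0.080 (FDR 0.151, or 0.0603 with the mouse block), from 111 ± 6.62 CPM in MPP3 and 97.8 ± 9.32 CPM in MPP4. The WT call was lost in 6 of 24 fits that left out a library or a mouse, those without WT replicate 1, 2 or 4 in 1 or both populations (FDR up to 0.237).

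Dpf2, a canonical BAF subunit with PHD fingers (ENSMUSG00000024826, chromosome 19, 5896516 to 5913010, minus strand), had 337, 294, 291 and 300.4 CPM in the MPP3 libraries labelled WT, against 252, 258, 252 and 246 CPM in the MPP4 libraries labelled WT, again without overlap (log2 0.28 ± 0.098, FDR 0.0823). In KO the values were 254, 279, 318 and 342 CPM in MPP3 and 211, 224, 251 and 287 CPM in MPP4, which overlapped between mice but were higher in MPP3 within each of the 4 mice (log2 0.29 ± 0.098, FDR 0.0575). Ss18, the BAF subunit that is fused in synovial sarcoma (ENSMUSG00000037013, chromosome 18, 14624198 to 14682914, minus strand), had 189.6, 195, 195 and 178 CPM in the MPP3 libraries labelled WT, against 169.7, 159, 163 and 172 CPM in the MPP4 libraries labelled WT, and 182, 176, 176 and 188 CPM in MPP3 against 129, 156, 152 and 162 CPM in MPP4 of mice labelled KO. MPP3 was above MPP4 without overlap in both labels, by log2 0.19 ± 0.067 (FDR 0.0827) in WT and 0.27 ± 0.067 (FDR 0.0131) in KO. The WT calls of Dpf2 and Ss18 were close to the threshold and were lost in 13 and 15 of 24 fits that left out a library or a mouse (FDR up to 0.245 and 0.314), and the KO call of Dpf2 in 6 of 24 (FDR up to 0.186). The KO call of Ss18 was kept in all 24.

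In the other direction, Smarcd1, a BAF60 subunit (ENSMUSG00000023018, chromosome 15, 99702129 to 99713991, plus strand), had 56.7, 47.0, 41.2 and 35.9 CPM in the MPP3 libraries labelled KO, against 72.4, 73.0, 69.9 and 48.1 CPM in the MPP4 libraries labelled KO (log2 −0.54 ± 0.17, FDR 0.0392). MPP4 replicate 4 stood below the other MPP4 libraries and within the range of MPP3. Leaving out replicate 3 or 4 of MPP3 KO, replicate 1 or 2 of MPP4 KO, or both libraries of KO replicate 2 or 3 ended the call (FDR up to 0.183). The gene was at 54.8 ± 5.97 CPM in MPP3 and 72.0 ± 14.5 CPM in MPP4 of mice labelled WT. There the log2 fold change was −0.39 ± 0.17 (FDR 0.164, or 0.0207 with the mouse block). The exons of Smarcd1 overlap those of genes on the other strand over 12.7% of their length, and those of Dpf2 over 1.22%, so counts there could include reads of those genes. Smarcd2, its BAF60 paralogue, was called with the mouse block only, at log2 −0.36 ± 0.13 in WT (FDR 0.0671) and −0.42 ± 0.13 in KO (FDR 0.0291). In KO the block also called Arid1a (log2 −0.23 ± 0.071, FDR 0.0351), Brd9 (−0.24 ± 0.089, FDR 0.0719) and Smarcc1 (−0.19 ± 0.068, FDR 0.0562), each lower in MPP3. DESeq2 called Arid1a in KO without a block (FDR 0.0902). The ATPase genes Smarca4 and Smarca2, the core genes Smarcb1, Smarcc2, Smarce1 and Actl6a, and the PBAF genes Pbrm1, Arid2 and Brd7 were called in neither label, with or without the block, and had log2 fold changes between −0.13 (Smarca2) and 0.085 (Arid2) in WT.

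**Figure D3:**
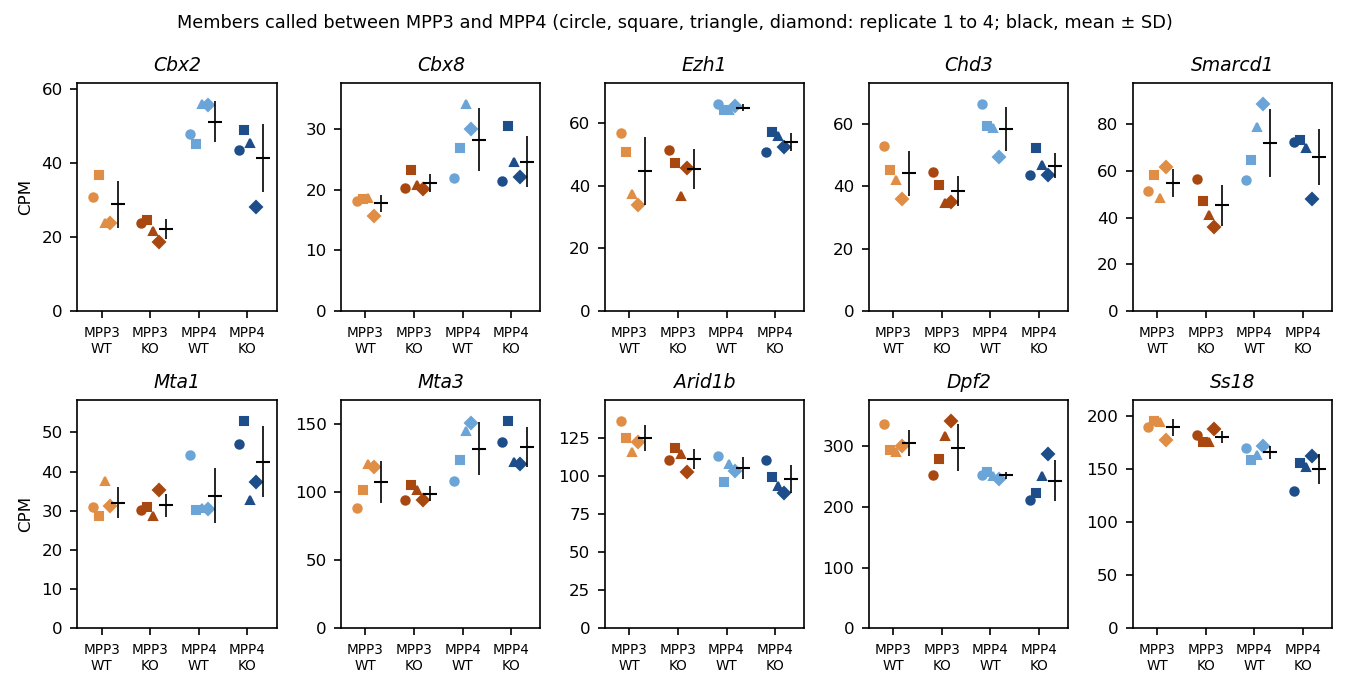
CPM of the 10 genes called between MPP3 and MPP4 in mice of either label, on axes starting at 0, with 1 symbol per mouse (circle, square, triangle and diamond for replicates 1 to 4) and the mean ± SD in black. Cbx2 is lower in MPP3 than in MPP4 for both labels, whereas Ss18 is higher in MPP3 for both labels, and Dpf2 in KO mice follows the same order of mice in both populations.

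The 3 PR-DUB genes were not called between the populations. Bap1, the deubiquitinase, was at 134 ± 14.7 CPM in MPP3 and 157 ± 11.9 CPM in MPP4 in WT (log2 −0.22 ± 0.086, FDR 0.123, or 0.0688 with the mouse block), while its partners Asxl1 and Asxl2 had log2 fold changes of −0.048 and 0.025. Markers of other cell types and of the cell cycle also differed between the populations. Of 5 mast cell and basophil markers, 4 were called higher in MPP3 in each label, and their summed level was 197 to 387 CPM in MPP3 and 24.7 to 56.3 CPM in MPP4. Of 10 cell cycle markers, 3 (Top2a, Cdk1 and Ccnb1) were called lower in MPP3 in each label, with a summed level of 4125 to 4823 CPM in MPP3 and 4440.5 to 4867 CPM in MPP4. Of 5 neutrophil markers, S100a8 was called higher in MPP3 in each label, and the summed level was 8.98 to 75.1 CPM in MPP3 and 1.48 to 13.3 CPM in MPP4. Of 5 plasma cell markers, 2 were higher and 1 lower in MPP3 of mice labelled WT, and 1 was higher and 2 lower in those labelled KO. They summed to 179 to 759 CPM in MPP3 and 188 to 384 CPM in MPP4, with Igkc at 0 counts in 6 of 16 libraries. Of 3 stem cell markers, Procr and Mecom were called higher in MPP3 of mice labelled KO, as was Klf1 of 4 erythroid markers, with sums of 33.4 to 80.7 CPM and 6.88 to 60.7 CPM over all libraries. None of the B cell, T and NK cell or macrophage markers was called, and their sums were at most 94.6, 6.74 and 31.0 CPM. The B cell marker Ms4a1 and the NK cell marker Ncr1 were at 0 counts in 9 and 13 libraries, and of the mast cell markers Cma1 and Gzmb were at 0 in 8 each. The part of these markers in the differences of the chromatin genes was not tested.

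Several subunits are encoded by paralogues that replace each other in a complex, so 17 ratios of paralogue pairs were formed within each library as the log2 of the ratio of counts, where library scaling cancels. Over the 8 mice, 4 of the 17 ratios differed between MPP3 and MPP4 (2-sided exact permutation test by sign flips over mice, FDR 0.0664 for each over the 17 ratios, 5 with an unadjusted p under 0.05). The ratios were formed from the libraries and genes that also gave the calls, so they are no independent support for them.

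The Mta3/Mta2 ratio was lower in MPP3 in all 8 mice. It was −2.01, −1.68, −1.42 and −1.38 in MPP3 and −1.73, −1.60, −1.36 and −1.29 in MPP4 of WT replicates 1 to 4, and −1.57, −1.63, −1.72 and −1.80 in MPP3 and −1.20, −1.13, −1.46 and −1.52 in MPP4 of KO replicates 1 to 4. The mean difference was −0.24 ± 0.16 (SD, n = 8, exact permutation p = 0.0078, the smallest that 8 mice can give). The mice labelled KO moved by more than those labelled WT, by −0.36 against −0.13, but this difference did not pass (4 against 4 mice, exact permutation p = 0.0571, FDR 0.486). With 4 against 4 mice the exact permutation p cannot fall below 0.0286. A ratio alone at that p cannot reach an FDR under 0.1 over 17 ratios, so the FDR cannot decide this question.

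The Arid1b/Arid1a ratio was higher in MPP3 in 7 of 8 mice, by 0.36 ± 0.23 (SD, n = 8, exact permutation p = 0.0156), from a mean of −0.71 in MPP4 to −0.35 in MPP3. It was −0.19, −0.19, −0.55 and −0.32 in MPP3 and −0.71, −0.73, −0.42 and −0.62 in MPP4 of mice labelled WT, and −0.50, −0.25, −0.23 and −0.57 in MPP3 and −0.71, −0.80, −0.65 and −1.05 in MPP4 of mice labelled KO. The exception was WT replicate 3. The Chd3/Chd4 ratio was lower in MPP3 in 7 of 8 mice, by −0.39 ± 0.20 (exact permutation p = 0.0156), all but KO replicate 1. It was −2.21, −2.31, −2.42 and −2.64 in MPP3 and −1.94, −1.84, −1.77 and −2.07 in MPP4 of mice labelled WT, and −2.34, −2.47, −2.63 and −2.83 in MPP3 and −2.34, −2.14, −2.18 and −2.46 in MPP4 of mice labelled KO, where both values of replicate 1 were equal to 2 decimals.

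The Cbx2/Cbx8 ratio was lower in MPP3 in 7 of 8 mice, by −0.43 ± 0.34 (exact permutation p = 0.0156), all but WT replicate 2. It was 0.76, 0.99, 0.34 and 0.60 in MPP3 and 1.13, 0.74, 0.71 and 0.89 in MPP4 of WT replicates 1 to 4, and 0.22, 0.088, 0.045 and −0.10 in MPP3 and 1.01, 0.68, 0.88 and 0.34 in MPP4 of KO replicates 1 to 4. The drop from MPP4 to MPP3 was larger in every mouse labelled KO than in any labelled WT (−0.66 against −0.19 on average). The exact permutation p of that difference was 0.0286, the smallest that 4 against 4 mice can give, and its FDR over the 17 ratios was 0.486. A ratio alone at that smallest p cannot reach an FDR under 0.1, so this FDR cannot decide the question. The ratios Ezh1/Ezh2 (−0.35 ± 0.47, FDR 0.166) and Smarca2/Smarca4 (0.043 ± 0.24, FDR 0.699) did not pass between the populations. Leaving out both libraries of a mouse brought the number of ratios that passed from 4 to 0 for 7 of the 8 mice and to 3 for WT replicate 2, and 7 mice can give no exact p below 0.0156.

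**Figure D4:**
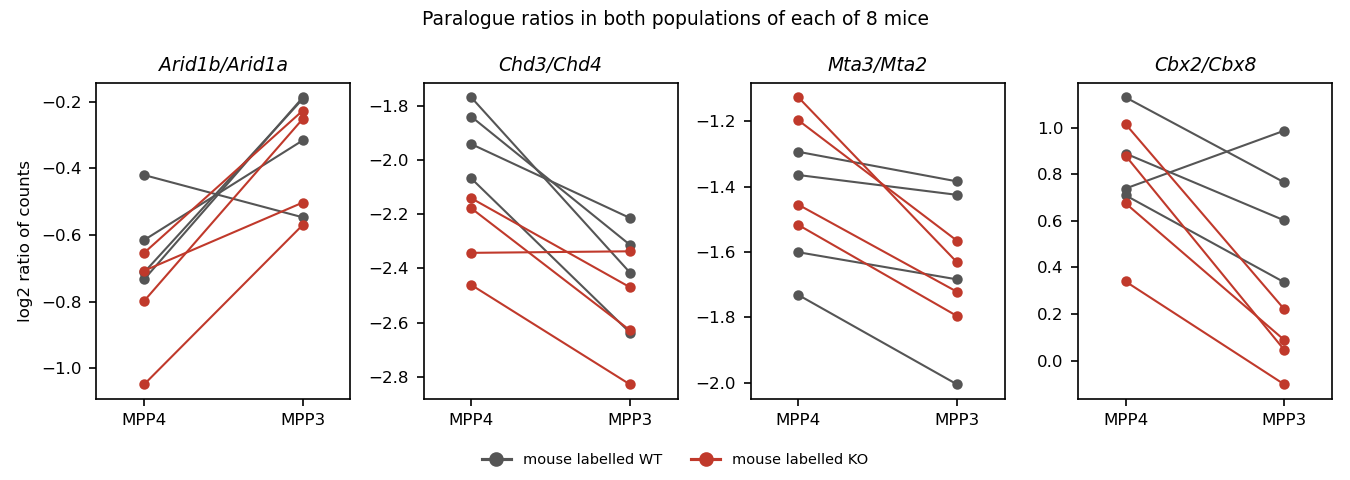
Log2 ratio of counts of 4 paralogue pairs in MPP4 and MPP3, with a line for each of 8 mice (grey, labelled WT; red, labelled KO). Lines of Mta3/Mta2 fall in all 8 mice, those of Chd3/Chd4 and Cbx2/Cbx8 fall and those of Arid1b/Arid1a rise in 7 of 8.

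The comparison of KO with WT asked whether targeting Ebf1, a B lineage transcription factor, was accompanied by changes in these genes. None of the 45 was called in MPP3 (0.0676% of all genes were called) or in MPP4 (0.0169%). These shares over all genes moved with single libraries. The 8 genes called in MPP3 became 135 (1.14%) when WT replicate 3 of MPP3 was left out, 72 (0.609%) when its KO replicate 1 was, 40 (0.338%) when its WT replicate 4 was and 1 (0.00845%) when its WT replicate 2 was. The 2 genes called in MPP4 became 41 (0.347%) when KO replicate 4 of MPP4 was left out, 36 (0.304%) when its KO replicate 3 was and 25 (0.211%) when WT replicate 1 of MPP3 was. Any other single library left 5 to 10 genes called in MPP3 and 1 to 7 in MPP4. At an unadjusted p under 0.05 there were 4 of 45 in MPP3 (8.89%, against 10.5% of all genes) and 8 of 45 in MPP4 (17.8%, against 12.8%). The median log2 fold change was −0.015 in MPP3 and 0.0042 in MPP4, beside −0.0055 and −0.013 over all genes. Groups did not overlap for 3 genes in MPP3 (6.67%, against 4.58% of all genes), namely Smarca2, Brd9 and Cbx8, and for 6 in MPP4 (13.3%, against 7.27%), namely Smarcc2, Mta2, Hdac1, Ezh1, Ezh2 and Bap1. PRC1 genes lay below 0 on the log2 scale in 7 of 9 cases in MPP3 (6 of 9 in DESeq2) and 8 of 9 in MPP4, with medians of −0.096 and −0.17, none called. DESeq2 called none of the 45 in MPP3 (1.82% of all genes) and Smarca2 and Bap1 in MPP4 (2.58% of all genes). Markers of the progenitors moved with the label in MPP4 as well. Of 5 LSK progenitor markers, Kit was lower in KO (log2 −0.42 ± 0.067, edgeR FDR 0.056) and the other 4 were not called by edgeR, though Ly6a was called higher by DESeq2 (log2 0.45, FDR 0.0618). Their summed level in MPP4 was 3712 to 4122 CPM under the WT label and 3311 to 3561 CPM under the KO label, and that of 3 stem cell markers was 47.8 to 65.6 and 33.4 to 43.4 CPM, in each case without overlap (Mecom log2 −0.61, FDR 0.0967 in DESeq2, and 0.226 in edgeR). In MPP3 the sums overlapped for both lists, at 2969 to 3086 and 2675 to 2990 CPM and at 64.1 to 80.7 and 49.2 to 77.1 CPM. DESeq2 called Ly6a higher in KO in MPP3 too (log2 0.47, FDR 0.0506). It also called the mast cell and basophil marker Mcpt8 higher there (log2 0.73, FDR 0.00485), and edgeR called neither. The part of these markers in the values of the 45 genes was not tested. Standard errors ranged from 0.052 on the log2 scale for Smarce1 to 0.44 for Hdac2 in MPP3.

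In MPP3 the smallest p-values belonged to Brd9, Bap1 and Smarcc2, all with lower values in KO. Brd9, the bromodomain subunit of noncanonical BAF, had 56.6, 54.4, 53.3 and 55.0 CPM in MPP3 cells of mice labelled WT, against 36.9, 39.8, 48.6 and 51.1 CPM in those of mice labelled KO. The groups did not overlap, and the libraries labelled KO were more spread (log2 −0.31 ± 0.11, FDR 0.314, or log2 −0.17 and FDR 0.766 with age as a covariate). Bap1 had 149, 145, 119 and 124 CPM in MPP3 cells of mice labelled WT, against 104, 122, 125 and 113 CPM in those of mice labelled KO (log2 −0.21 ± 0.086, FDR 0.397). Smarcc2, a core scaffold of SWI/SNF, had 163, 115, 76.7 and 94.7 CPM in MPP3 cells of mice labelled WT, against 97.8, 77.9, 78.6 and 85.5 CPM in those of mice labelled KO (log2 −0.40 ± 0.17, FDR 0.41), with WT replicate 1 well above the other libraries. Without that library the log2 fold change was −0.16 (FDR 0.816).

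In MPP4 they belonged to Smarca2, Bap1 and Pbrm1. Smarca2, also known as Brm, the less abundant of the SWI/SNF ATPase genes, had 115, 121, 116 and 95.7 CPM in MPP4 cells of mice labelled WT, against 85.2, 79.2, 97.0 and 86.3 CPM in those of mice labelled KO. WT replicate 4 lay within the KO range, and the log2 fold change was −0.36 ± 0.082 (FDR 0.14, or 0.0168 in DESeq2). In MPP3 the gene had 106, 106, 94.9 and 101 CPM in MPP3 cells of mice labelled WT, against 90.4, 83.3, 93.7 and 94.0 CPM in those of mice labelled KO, where the groups did not overlap (log2 −0.17 ± 0.082, FDR 0.479). The edgeR FDR in MPP4 was 0.0553 with sex as a covariate and 0.0860 without MPP4 KO replicate 3. These fits and DESeq2 were the 3 of 33 alternatives that called Smarca2 in MPP4. The other 30 did not call it, with an FDR up to 0.47, among them the fit with age as a covariate. Bap1 had 141, 159.8, 169 and 157 CPM in MPP4 cells of mice labelled WT, against 123, 133, 135 and 122 CPM in those of mice labelled KO, without overlap (log2 −0.29 ± 0.086, FDR 0.196, or 0.0994 in DESeq2). Pbrm1, the polybromo subunit of PBAF, had 93.8, 73.1, 79.2 and 84.8 CPM in MPP4 cells of mice labelled WT, against 113, 97.4, 88.8 and 105 CPM in those of mice labelled KO, of which KO replicate 3 lay within the WT range (log2 0.29 ± 0.11, FDR 0.274).

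The Smarca2/Smarca4 ratio, averaged over both populations of a mouse, was −1.59 ± 0.096 (SD, n = 4) in mice labelled KO and −1.31 ± 0.099 in those labelled WT, without overlap (difference −0.28, 2-sided exact permutation p = 0.0286, the smallest that 4 against 4 mice can give, FDR 0.291 over the 17 ratios). No other ratio had an exact p under 0.05 in this comparison, and a ratio alone at the smallest p cannot reach an FDR under 0.1. Smarca4 itself had log2 fold changes of KO against WT of −0.021 ± 0.059 in MPP3 and 0.044 ± 0.059 in MPP4.

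The interaction asked whether KO and WT differed by unequal amounts in MPP3 and MPP4. None of the 45 genes was called, and none of the 11831 was (0%, with 270 genes at an unadjusted p under 0.05, 8 called by DESeq2 and 2 with the mouse block, none of them among the 45). The smallest p-values of the 45 were those of Cbx8 (log2 0.44 ± 0.20, unadjusted edgeR p 0.0396, FDR 1) and Smarcb1 (log2 −0.17 ± 0.099, p 0.0981, FDR 1). Cbx8 had lower values in MPP3 WT (17.8 ± 1.39 CPM) than in MPP3 KO (21.1 ± 1.43 CPM) and the opposite order in MPP4 (28.3 ± 5.19 and 24.7 ± 4.15 CPM). Smarcb1, a core subunit, had 223, 235, 200.2 and 205 CPM for MPP3 against 219, 218, 190.4 and 204 CPM for MPP4 under the WT label, and 189.9, 199, 212 and 205 CPM for MPP3 against 212, 242, 216 and 207 CPM for MPP4 under the KO label, and the 4 groups overlapped.

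The genes differed widely in how well replicates agreed. The pooled SD within groups on the log2 scale had a median of 0.19 over the 45 genes and exceeded 0.3 for 5 of them. It was smallest for Hdac1 (0.051), Smarce1 (0.053) and Smarca4 (0.072) and largest for Hdac2 (0.78), Smarcd2 (0.64), Ring1 (0.41) and Smarcc1 (0.39). Hdac2, the deacetylase paralogue of Hdac1, had 22.6, 72.8, 78.8 and 122 CPM for MPP3 against 30.5, 52.4, 107 and 107 CPM for MPP4 under the WT label, and 117, 131, 114 and 60.2 CPM for MPP3 against 130.0, 155, 124 and 65.9 CPM for MPP4 under the KO label. WT replicate 1 and KO replicate 4 were lowest of their groups in both populations, and these mice were low in MPP3 and MPP4 alike. Over the same libraries Hdac1 stayed between 259 and 302 CPM.

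Libraries of female and male mice, as labelled, were apart within every group for some genes. For 3 of the 45 genes, Hdac2, Smarcd2 and Eed, both female libraries lay below both male libraries in all 4 groups (6.67%, against 1.38% of all genes tested), and for 1, Brd7, they lay above (2.22%, against 1.95%). Averaged per mouse over both populations, Hdac2 was at 67.8 ± 38.2 CPM in 4 female mice and 119 ± 20.7 CPM in 4 male mice, and Smarcd2, a BAF60 subunit needed for granulocyte maturation, at 114 ± 47.1 and 198 ± 22.1 CPM. The ranges of mice overlapped for both genes, from 63.5 to 177 CPM in females and 170.4 to 221 CPM in males for Smarcd2, and from 26.5 to 119 CPM in females and 93.0 to 143 CPM in males for Hdac2. For both genes the SD among females exceeded that among males. The lowest libraries of their groups were those of the females WT replicate 1 and KO replicate 4. The female KO replicate 3 lay close below the male KO replicate 1 for Hdac2. Eed was at 105 ± 16.2 and 128 ± 6.54 CPM. This pattern was chosen after the values were seen and is given without a test. Brd7 was at 113 ± 10.7 CPM in female and 98.8 ± 4.05 CPM in male mice. Ages differed among the mice as well, and their part was not tested.

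**Figure D5:**
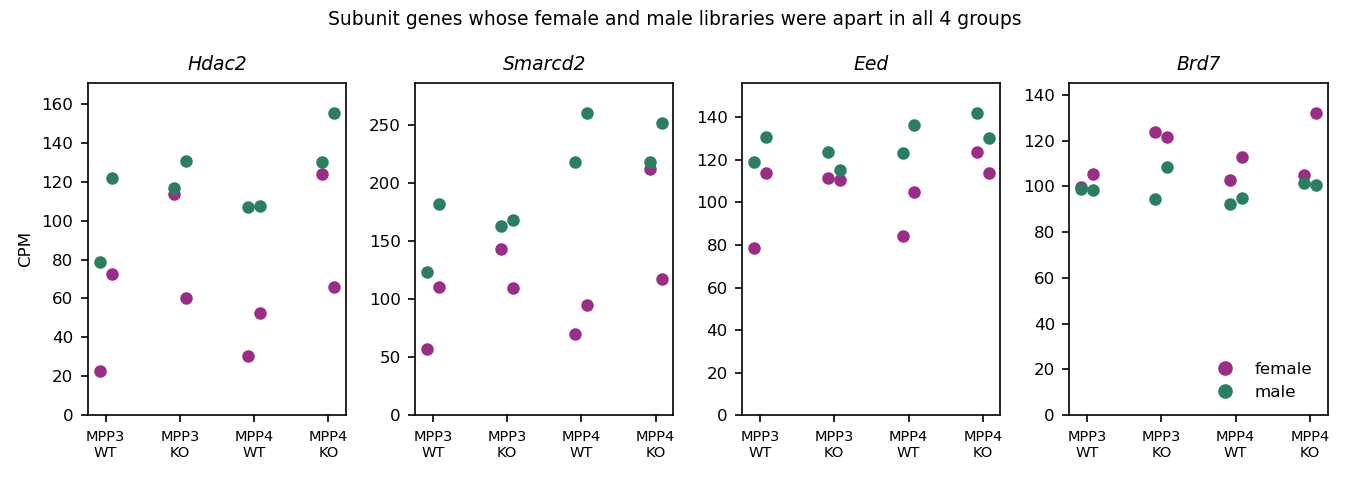
CPM of Hdac2, Smarcd2, Eed and Brd7 in each of the 16 libraries by group, coloured by the labelled sex of the mouse, on axes starting at 0. In every group the female points of Hdac2, Smarcd2 and Eed lie below the male points and those of Brd7 above.

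A further 43 genes encode other subunits of these complexes, of which 37 passed the filter. Smarcd3, Dpf1, Dpf3, Actl6b, Chd5 and Asxl3 did not pass. None of the 37 was called by edgeR for KO against WT in either population, while DESeq2 called Bcorl1, a corepressor subunit of variant PRC1, in MPP4 (log2 −0.94, FDR 0.0194, or 0.147 in edgeR), and their median log2 fold changes were −0.16 in MPP3 and −0.096 in MPP4. Between MPP3 and MPP4, Pcgf1, a subunit of variant PRC1, was called in WT (1 of the 37, against 15.1% of all genes, lower in MPP3 at log2 −0.38 ± 0.14, FDR 0.0953), with 17.2, 20.2, 15.7 and 17.6 CPM in the MPP3 libraries labelled WT, against 22.4, 26.7, 21.7 and 20.9 CPM in the MPP4 libraries labelled WT. In KO the calls were Bcl7c of BAF (−0.40 ± 0.12, FDR 0.0301) and Pcgf3 of variant PRC1 (−0.40 ± 0.14, FDR 0.0745), both lower in MPP3 (2 of 37 or 5.41%, against 17.9% of all genes). With the mouse block 8 of the 37 were called in WT (21.6%, against 24.8%) and 7 in KO (18.9%, against 28.3%).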

How the data were processed

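Gene counts were analysed for 16 bulk RNA-seq libraries of sorted MPP3 and MPP4 cells. Per the labels and the study's methods, the authors prepared polyA RNA with the NEBNext Single Cell/Low Input kit, sequenced paired ends, and processed reads with snakePipes 2.5.1, aligning to mm10 with STAR 2.7.3a and counting with featureCounts 2.0.0. The annotation release and strand setting of the counting are not given in the sources used here. The deposited values used here are raw counts per gene, and a deposited table of the same libraries after division by DESeq2 1.28.1 size factors was not used.

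The filter kept the 11831 genes whose counts averaged over 100 in 1 or more groups. They were scaled by TMM and fitted with edgeR 4.0.16 (R 4.3.3, quasi-likelihood, legacy deviances) with 1 mean for each of 4 groups over all 16 libraries. P-values were adjusted by Benjamini-Hochberg over all genes tested, and an FDR under 0.1 was called. Standard errors were derived from the quasi-likelihood F statistic. Of the 47937 gene identifiers, 47310 were matched to GENCODE M21 for names, coordinates and exon lengths. Library totals of 24823708 to 48703193 make 1 count worth 0.0206 to 0.0394 CPM, and no member had fewer than 176 counts in a library. Spread between libraries holds differences of mice and of library preparation, which cannot be told apart here.

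The 17 paralogue ratios used a pseudocount of 0.5 counts and 2-sided exact permutation tests. Same-numbered MPP3 and MPP4 libraries of a genotype were taken as 1 mouse, since their labelled sex and age are the same and their deviations from the group means correlated at r = 0.27 to 0.53 for each of the 8 pairs. Genes named with values of each library were the 3 largest calls in each direction between MPP3 and MPP4 in WT, the 3 smallest p-values in each comparison of KO with WT, the 2 smallest in the interaction, all other called members and the leading called other subunits. Both genes of each ratio that passed were named, with the ratio in each library, but Mta2, Chd4 and Arid1a without their own values of each library. Values beyond that rule (such as Hdac2, Cbx7 and Ezh2) were chosen after they were seen. The members, complexes, other subunits and marker lists (LSK progenitor, stem cell, cycling, plasma cell, B cell, T and NK cell, erythroid, neutrophil, macrophage, mast cell and basophil) were chosen with earlier results of these data known. Promoter windows came from RefSeq (GRCm38.p6). Tested on simulated counts for 11831 genes, the fit called 6% of genes changed 1.25-fold between KO and WT in MPP3. It called 44% of those changed 1.5-fold and 70% of those changed 2-fold, of 50 genes each. Between MPP3 and MPP4 in WT these shares were 8%, 42% and 78%. The simulation also held 50 genes changed 4-fold, of which 48 were called by genotype in MPP3. In the measured libraries the genotype comparison called 8 genes in MPP3 and 2 in MPP4. With so few calls the FDR cut-off is stricter than in the simulation, so the simulated shares can overstate which genotype changes were detectable. Alternatives were DESeq2 1.42.0, another normalisation, other filters, covariates for sex and age, the mouse as a block, separate fits and leaving out libraries or mice.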

Additional observations from a re-analysis of the deposited data

Results flagged for a closer look

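In 9 of the 180 groups of 4 libraries (45 genes, 4 groups), the highest or lowest library stood so far from the nearest of the others that the gap passed Dixon's 95% critical value as a share of the group's range, and chance alone gives about 1 in 20 groups, which is also 9. In MPP4 KO replicate 4, Smarcd1 was lowest at 48.1 CPM (next 69.9), Smarce1 lowest at 259 CPM (next 266), Rbbp4 lowest at 278 CPM (next 314) and Brd7 highest at 132 CPM (next 105). In MPP4 KO replicate 3, Suz12 was lowest at 28.7 CPM (next 39.9). In MPP4 WT replicate 1, Mta1 was highest at 44.4 CPM (next 30.6). In MPP3, Chd4 was highest in WT replicate 1 at 246 CPM (next 225), Actl6a lowest in WT replicate 2 at 157 CPM (next 188) and Mta2 lowest in KO replicate 1 at 279 CPM (next 327). MPP4 KO replicate 4 held 4 of the 9, and what set this library apart was not tested.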

How the results depend on the processing

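No called member, and no member named for its small p-value, reversed in sign in its contrast under any alternative that was run. Values close to 0 did: in DESeq2, the log2 fold change of Phc1 in WT went from −0.0030 to 0.0010, and the median over all genes from −0.00039 to 0.0045 between MPP3 and MPP4 in WT and from −0.0055 to 0.00077 for KO against WT in MPP3. The number of members called for KO against WT in MPP4 was 0, and it was 1 (Smarca2) with sex as a covariate (1.55% of all genes called), 2 (Smarca2 and Bap1) in DESeq2 (2.58%) and 0 to 1 when 1 library or mouse was left out (0.00845% to 0.414%). It was 0 in MPP3 and in the interaction under every alternative that was run. Between MPP3 and MPP4 in WT, 7 members were called (15.1% of all genes), against 4 with all genes of at least 1 count kept (5.65% of all genes), 11 with sex as a covariate (17.8%), 15 with the mouse as a replicate block (24.8%), and 3 to 9 when libraries or mice were left out (9.64% to 15.3%). In KO, 6 were called (17.9% of all genes), against 13 with the replicate block (28.3%) and 3 to 8 when libraries or mice were left out (11.7% to 18.5%). The lowest values came without WT replicate 2, 3 or 4 (3 calls each, with 11.3%, 9.84% and 9.64% of all genes called) and without MPP4 WT replicate 2 or 4 (4 calls each, with 12.8% and 12.0%). In KO they came without MPP3 KO replicate 3, without MPP4 KO replicate 2 and without that mouse altogether (3 calls each, with 14.9%, 14.3% and 11.7%). Cbx2 in both labels, Cbx8 in WT and Ss18 in KO were called under all 33 alternatives. Calls were lost in 2 of 33 alternatives for Ezh1, 5 for Chd3, 7 for Arid1b, 15 for Dpf2 and 17 for Ss18 in WT, and in 1 for Mta3, 6 for Smarcd1, 8 for Dpf2 and 10 for Mta1 in KO. The ratios that passed between MPP3 and MPP4 numbered 4, against 2 with no replicate block (labels permuted freely), 3 without WT replicate 2 and 0 without any 1 of the other 7 mice, and 7 mice allow no smaller p than 0.0156. The replicate block paired the MPP3 and MPP4 libraries of a mouse. Same-numbered WT and KO libraries share only a number (r from −0.44 to 0.061), and a block on that number called 0 members for KO against WT in both populations. The cause of these changes was not tested, apart from the smaller number of libraries or mice in fits that leave some out. Each of the 45 genes had at least 176 counts in every library, and the number of RNA molecules behind these reads is not known.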

Other observations

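Replicates agreed least for a handful of subunits of all 3 families, and their values in each library are given here. Smarcd2 had 57.1, 110.2, 123 and 182 CPM for MPP3 against 69.9, 94.7, 218 and 259.8 CPM for MPP4 under the WT label, and 163, 168, 143 and 109 CPM for MPP3 against 218, 251, 211 and 117 CPM for MPP4 under the KO label. As for Hdac2, WT replicate 1 and KO replicate 4 were the lowest of their groups in both populations. Smarcc1, a core scaffold of SWI/SNF, had 117, 239, 226 and 268 CPM for MPP3 against 131, 206, 256 and 294 CPM for MPP4 under the WT label, and 274, 252, 214 and 206 CPM for MPP3 against 304, 261, 274 and 239 CPM for MPP4 under the KO label, and WT replicate 1 was again the lowest in both populations. Its paralogue Smarcc2 was highest of its group in the MPP3 library of that mouse, at 163 CPM, and within the range of the others in its MPP4 library, at 121 CPM. Ring1, the less abundant ubiquitin ligase gene of PRC1, had 25.5, 41.8, 32.2 and 34.9 CPM for MPP3 against 25.3, 40.3, 52.8 and 55.0 CPM for MPP4 under the WT label, and 30.6, 34.9, 35.02 and 25.1 CPM for MPP3 against 36.9, 47.2, 47.9 and 22.1 CPM for MPP4 under the KO label, with no group apart from the others. Counted over all 45 genes, MPP3 KO replicate 3 and MPP4 KO replicate 4 were each the lowest of their group for 17 genes, and MPP3 WT replicate 4 was the highest of its group for 16.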
